A study of Mus musculus with 56 samples.

Results

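The BMP and TGF-beta pathway genes described here are 42 named genes of the 50600 quantified in each sample: 14 genes listed as ligands, 10 receptors, 2 signal-carrying SMADs, 11 readouts and 5 antagonists. They were chosen by name, and found by Ensembl identifier through the symbols of GENCODE release M21, in sorted thymic epithelial cells (TECs) of mice around pregnancy. Of the 42, the same 39 passed the filter on low values in cortical TECs (cTECs) and in medullary TECs (mTECs), a mean of at least 0.5 FPKM (fragments per kilobase of transcript, scaled to the depth of the library) over the samples of a cell type. Nog, Bmp5 and Msx2 did not, with mean levels of 0.125, 0.0168 and 0 FPKM in cTECs and of 0.203, 0.212 and 0.0421 FPKM in mTECs. The antagonist gene Fst moved most clearly: it was called lower on day 6 after birth than in late gestation in both cell types. Its mean went from 39.3 to 8.44 FPKM in cTECs and from 102 to 21.8 FPKM in mTECs. No ligand or receptor was called in any comparison between time points. Calls were rare over all genes as well, at 0% to 1.58% of those tested in these comparisons.

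BMPs, activins and TGF-betas are secreted dimers that bring together type I and type II receptor kinases on the cell surface. The activated receptors phosphorylate SMAD proteins, SMAD1, SMAD5 and SMAD9 downstream of BMPs and SMAD2 and SMAD3 downstream of activins and TGF-betas, which enter the nucleus and switch target genes such as the Id genes. Secreted antagonists such as noggin, gremlin, chordin and follistatin hold the ligands away from their receptors, and in the thymus BMP4 from the stroma is known to support the epithelium.

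The mice were B6.SJL females mated with BALB/cJ males, and the pups were taken away at birth, so that none of the mothers nursed. NPC were age-matched females that were not pregnant, D-2 was day 18 of gestation, D0 the day of parturition, and later time points are days after it. Each cell type had 28 samples, each from 1 mouse. Of the 16 groups, NPC and 5 time points (D-2 and D0, then D3, D6 and D12) had 3 samples, and 10 had 1, which were D1 and D2, D4 and D5, D8 and D10 and, in the late phase, every 4 days from D16 to D28. EpCAM+ CD45- cells from thymi digested with papain, collagenase and DNase were sorted as cTECs (UEA1-) or mTECs (UEA1+), and stranded poly-A RNA-seq was run on each.

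The depth, as total expected counts, lay between 4561208 and 108547384 in a sample (median 17972567). Of the 3 libraries with the fewest detected genes, cTEC D3 replicate 2 held 10481 genes, with 17 of the 42 members at 0, mTEC D3 replicate 1 held 11995, with 13 at 0, and cTEC D20 held 13483, with 8 at 0. Results that rest on them are given without them too, the comparison of the cell types and the correlations also without D-2, and these and late against early cTECs also without the 11 samples named next. All 3 alternatives were chosen after seeing the data. Over all time points the 7 cTEC markers were called higher in the samples labelled cTEC and 7 of the 8 mTEC markers lower. Still, 11 of the 28 samples labelled cTEC held more summed mTEC than cTEC marker RNA: all 3 of D-2, all 3 of D0, NPC replicate 3 and those of D1, D20, D24 and D28. Leaving them out therefore removes all cTEC samples of D-2, D0, D1, D20, D24 and D28. The cTEC samples of D-2 held summed levels of 1524 to 2609 FPKM for the 7 cTEC markers and of 5783 to 8095 FPKM for the 8 mTEC markers, those of D0 2728 to 3668 and 6509 to 7846 FPKM, while at D6 the order was turned, with 10960 to 12050 and 3663 to 4277 FPKM. Most of the mTEC sum at D-2 was Ccl21a, a medullary chemokine (3760 to 6267 FPKM), and the samples labelled mTEC held more of the same list, 10450 to 19850 FPKM over all time points. Psmb11, the thymoproteasome subunit that defines cTECs, stood at 15.9 to 36.2 FPKM in the D-2 samples labelled cTEC and at 53.9 to 178 FPKM in the D6 samples labelled mTEC. In bulk samples, fewer cells of a type and less RNA per cell cannot be told apart.

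The promoters of the Id genes are shown because these genes, which code for inhibitors of DNA binding and differentiation, are the best known readouts of BMP receptors, and because the Id genes differed in how they varied. The 250 bases before a RefSeq transcript start of each gene, on GRCm38.p6, are given 5′ to 3′ on the strand of the gene. The palindromic GC-rich SMAD motif GGCGCC is in capitals. The windows are chr12:25096093-25096342 on the minus strand for Id2, chr4:136143572-136143821 on the plus strand for Id3 and chr13:48260866-48261115 on the plus strand for Id4. In GENCODE M21, Id2 spans chr12:25093799-25097140 and Id3 chr4:136143497-136145755, so that the windows of Id2 and Id3 lie inside the genes as annotated there.
Id2: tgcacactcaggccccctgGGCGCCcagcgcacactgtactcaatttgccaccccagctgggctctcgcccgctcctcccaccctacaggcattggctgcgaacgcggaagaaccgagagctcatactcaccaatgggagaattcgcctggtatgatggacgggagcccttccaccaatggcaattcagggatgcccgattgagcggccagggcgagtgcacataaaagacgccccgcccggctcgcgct
Id3: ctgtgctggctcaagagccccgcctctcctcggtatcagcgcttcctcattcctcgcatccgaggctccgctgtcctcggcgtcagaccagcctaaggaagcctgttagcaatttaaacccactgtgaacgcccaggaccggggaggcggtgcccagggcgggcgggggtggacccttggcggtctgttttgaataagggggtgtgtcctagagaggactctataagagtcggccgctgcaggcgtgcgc
Id4: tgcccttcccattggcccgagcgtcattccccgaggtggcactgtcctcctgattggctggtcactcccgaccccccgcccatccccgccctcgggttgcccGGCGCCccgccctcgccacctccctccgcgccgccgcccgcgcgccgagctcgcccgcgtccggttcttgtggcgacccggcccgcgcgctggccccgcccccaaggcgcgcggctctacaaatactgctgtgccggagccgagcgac
The motif, which reads the same on both strands, started at position -231 from the RefSeq transcript start of Id2 and at -148 from that of Id4. These letters were not in the window of Id3. Among all 32851 promoters of the same length in the table, 9.59% held the motif, and it was in 9 of the 37 promoters of the 31 members with an entry. Bambi, Bmp1, Bmp2, Bmp3, Bmp7, Fst, Id1, Nog, Smad7, Tgfb3 and Tgfbr3 had no entry.

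Read per length in FPKM, the ligand with the highest mean level was Tgfb1, which codes for TGF-beta 1, in cTECs (22.2) and Bmp7 in mTECs (28.8). In cTECs Bmp7 (21.5), Tgfb3 (13.5), Bmp1 (9.91), Inhbb (7.46) and Bmp4 (7.03) followed, and in mTECs Tgfb3 (21.4), Bmp1 (18.6) and Tgfb1 (15.9). Bmp1 is listed with the ligands by its name, but codes for a protease that trims collagens and cleaves chordin. Type I and type II BMP and activin receptors were present in both cell types, with Bmpr1a at 43.2 and 33.7 FPKM in cTECs and mTECs, Acvr1 at 11.7 and 15.0, Acvr2a at 8.56 and 7.11 and Bmpr2 at 9.46 and 8.14. Acvr1b and Tgfbr1, type I receptors for activins and TGF-betas, were at 9.86 and 8.47 and at 11.3 and 16.2 FPKM. Smad1 stood at 28.8 and 43.0 FPKM and Smad5 at 14.1 and 16.8, and among the readouts the inhibitory SMAD genes Smad6 (12.5 and 9.30 FPKM) and Smad7 (9.03 and 11.5 FPKM) and the homeobox gene Msx1 (12.9 and 13.1 FPKM) lay near these. Low ligands and receptors were Bmp6 (4.48 and 5.87 FPKM), Inhba (1.51 and 1.41), Acvr2b (1.35 and 3.20) and Bmpr1b (0.938 and 2.47), of which Inhba was at 0 in 4 cTEC and 5 mTEC samples. The highest member in cTECs was Twsg1, a secreted protein that binds BMPs together with chordin, at 99.4 FPKM, against 63.3 in mTECs, where Id3 led with 111.3. The map of the members over time shows these levels relative to each gene's own mean.

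**Figure D1:**
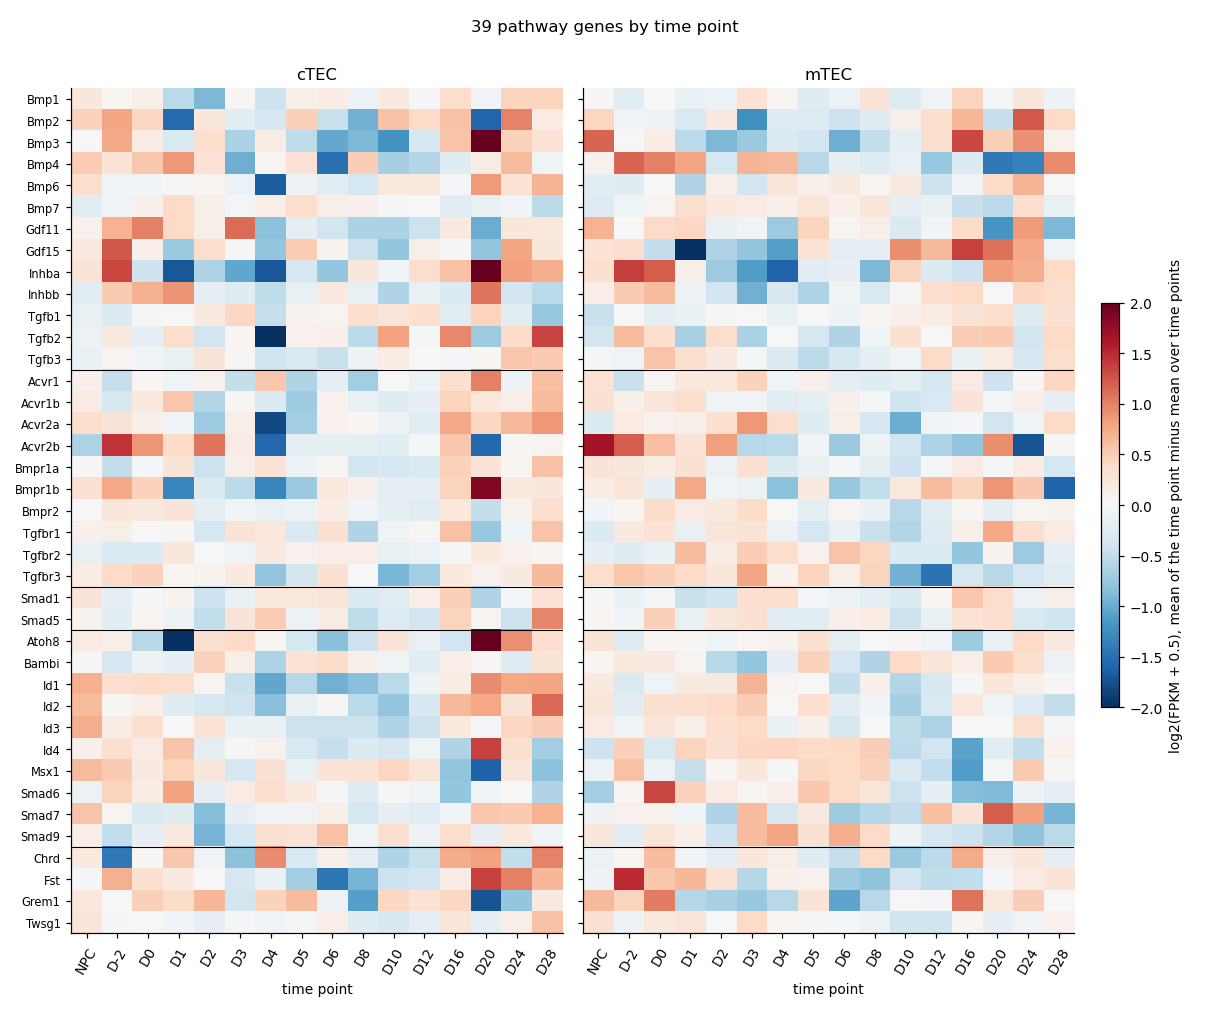
Levels of the 39 members over time, in cTECs (left) and mTECs (right). Rows are genes in the order of their roles, columns are time points, and the colour is the mean log2(FPKM + 0.5) of the time point minus the mean over time points of that gene, capped at 2 either way; Fst is red at D-2 in mTECs (102 FPKM) and blue at D6 in cTECs (8.44 FPKM).

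The first question was which members mark 1 of the cell types, tested in a fit of all 56 samples as the difference averaged over the 16 time points. Of the 39 members tested, 15 were called, that is, differed at least 2-fold with a limma adjusted p (Benjamini-Hochberg) no higher than 0.01, and 4 of them were higher in cTECs and 11 in mTECs. Of all 18394 genes tested, 23.3% were called, so that calls were common in the background. Most of these calls lay on the mTEC side too, with 860 higher in cTECs and 3433 in mTECs. The median log2 fold change was -0.49 over the members and -0.09 over all genes. Of the receptor genes of TGF-beta, Tgfbr2 and Tgfbr3 stood on the cTEC side, and Bmp2, Bmp3, Gdf11, Gdf15 and Tgfb2 among the ligands on the mTEC side.

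Bmp4 was the ligand higher in cTECs, at 7.03 ± 3.81 FPKM (SD, n = 28) against 1.19 ± 1.19 in mTECs (n = 28), a log2 fold change of 3.79 (SE 0.49, adjusted p = 9.7e-08). Its levels ran from 0 through a median of 6.845 to 14.2 FPKM in cTECs and from 0 through 0.73 to 4.23 in mTECs, and the ranges overlapped. Bmp2, a close relative, went the other way, at 1.24 against 5.71 FPKM (log2 fold change -3.24, SE 0.34, adjusted p = 2.44e-09), with Bmp3 at 0.848 against 3.35 FPKM. Tgfb2 was at 2.91 FPKM in cTECs and 6.78 in mTECs, -1.60 on the log2 scale (SE 0.23, adjusted p = 6.62e-07). Gdf15 and Gdf11, 2 growth differentiation factors, were lower in cTECs by log2 values of -3.76 (SE 0.59) and -2.40 (SE 0.46).

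Among the receptors, Tgfbr2, the type II receptor of the TGF-betas, differed without any overlap of samples. It ran from 38.3 through a median of 50.7 to 60.7 FPKM in cTECs and from 9.09 through 16.9 to 30.5 FPKM in mTECs, a log2 fold change of 1.73 (SE 0.06, adjusted p = 2.69e-20). The lowest of the 28 cTEC samples was thus above the highest of the 28 mTEC samples, in pregnant, non-pregnant and postpartum mice alike. The share of all genes that set the cell types apart in this way was not counted. Tgfbr3, betaglycan, which presents TGF-beta to the other receptors and binds inhibin, was at 36.3 ± 12.1 against 11.4 ± 4.90 FPKM (1.86, SE 0.13, adjusted p = 1.5e-13). Bmpr1b, a type I BMP receptor, was called lower in cTECs (-2.10, SE 0.56, adjusted p = 0.00207), but among the NPC samples alone its fitted value turned to 2.07 (adjusted p = 0.732). Its mean level in NPC did not turn, at 1.02 FPKM in cTECs (0.34 to 1.79) and 2.60 in mTECs (0 to 4.33).

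Of the readouts, Id1, Id2 and Atoh8, a transcription factor gene induced by BMPs, were lower in cTECs. Id1 was at 40.5 ± 19.0 FPKM in cTECs and 96.7 ± 29.4 in mTECs (-1.56, SE 0.17, adjusted p = 5.09e-09), and Atoh8 at 9.36 and 27.1 FPKM (-1.87, SE 0.16, adjusted p = 5.01e-11). Id2 was at 33.1 and 65.4 FPKM (-1.23, SE 0.15, adjusted p = 4.92e-08), while Id3, at 79.2 and 111.3 FPKM, and Id4, at 34.5 and 33.3 FPKM, were not called. Bambi, a decoy receptor without a kinase domain, went the other way at 2.97 and 0.961 FPKM (2.04, SE 0.33, adjusted p = 3.68e-06). The antagonists Grem1 (-1.97, SE 0.39) and Chrd (-1.25, SE 0.36) were called lower in cTECs. All of the 15 were called as well without the 3 libraries with the fewest genes. Without the samples of D-2, 14 of them were called and Bmp1 was added, while Chrd was at -1.05 (adjusted p = 0.0293), and in the 3 NPC samples of each cell type alone only Tgfbr2 was called. Without the 11 cTEC samples with more mTEC marker RNA, 13 members were called, 12 of the 15 and Bmp1, while Bmpr1b (adjusted p = 0.0371), Grem1 (0.0679) and Chrd (0.0399) were not.

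Markers of other cells differed between the cell types as well. Of 8 tested macrophage and dendritic markers 7 were called lower in cTECs (sums of 4.48 to 43.4 FPKM in cTECs and 17.3 to 217.5 in mTECs), and of 12 thymocyte markers 10 were called higher (22.4 to 315.0 and 8.70 to 106.2 FPKM). Of the 4 mural markers, of pericytes and smooth muscle, 2 were called lower (45.4 to 245.3 and 185.0 to 794.9 FPKM). Of 3 endothelial markers tested, 1 was called lower (0 to 5.06 and 1.39 to 17.8 FPKM), and of 8 fibroblast markers 1 higher and 3 lower (79.5 to 680.5 and 95.3 to 177.5 FPKM). The part of these markers in the differences of the members was not tested.

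**Figure D2:**
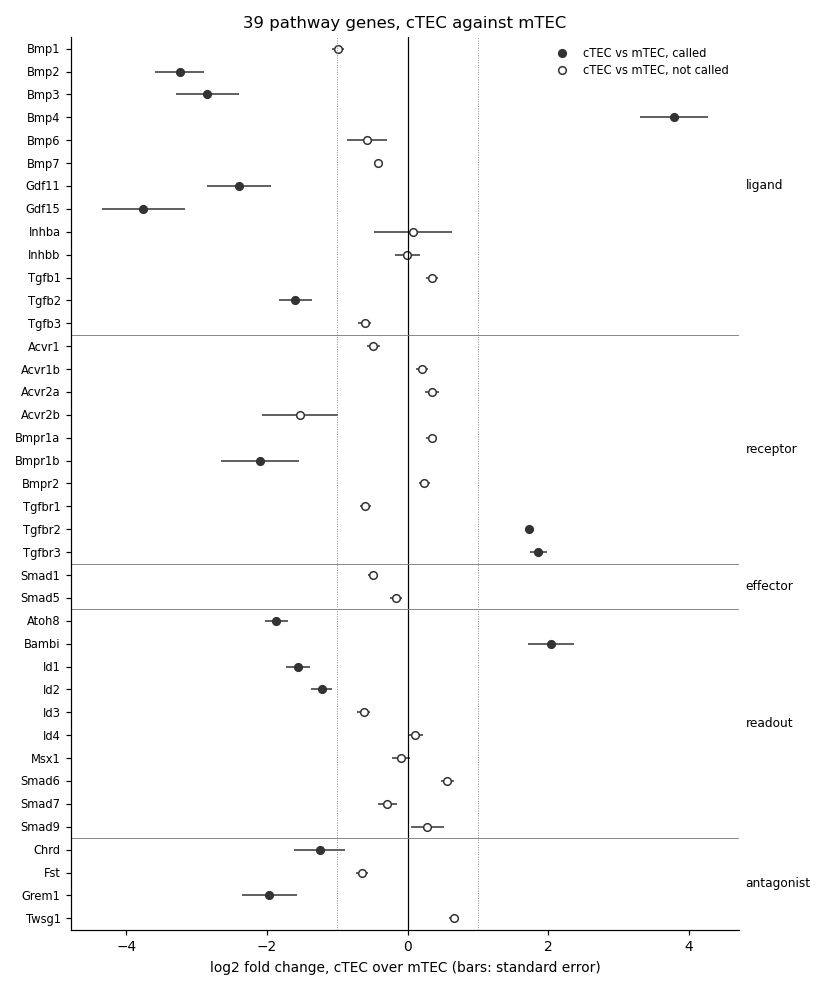
Log2 fold changes of the 39 members between the cell types, averaged over 16 time points, with the gene on the vertical axis, cTEC over mTEC on the horizontal axis, bars for the standard error and dotted lines at a fold change of 2. Filled points are the 15 members called, 4 to the right, of which Bmp4 (3.79) lies farthest out, and 11 to the left.

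The comparison of D-2 with NPC asks how these genes differ between late gestation, when the thymus is involuted, and mice that are not pregnant. Involution and the other changes of pregnancy cannot be told apart in it. In mTECs, Fst was the 1 member of 39 called, against 0.569% of all genes tested, and it rose. Fst codes for follistatin, which binds activins with high affinity and BMPs less tightly, and lies on chr13:114452290-114458951 of GRCm38 on the minus strand. The NPC mTEC samples held 27.99, 47.7 and 24.9 FPKM (33.5 ± 12.4, SD, n = 3) and those of D-2 held 98.2, 88.5 and 120.2 FPKM (102 ± 16.2, n = 3). Every D-2 sample was above every NPC sample, with a log2 fold change of 1.65 (SE 0.23, limma adjusted p = 0.00172). The summed mural markers went the other way without overlap, from 554.4 to 679.5 FPKM in NPC to 185.0 to 245.4 FPKM at D-2, with 1 of the 4 called lower, and their part in the rise of Fst was not tested. The call depended on the test, since edgeR gave an adjusted p of 0.0179 and a fit of these 6 samples alone 0.0542. All genes had a median shift of 0.12 in this comparison, and the members one of 0.24, with 6 members higher and 2 lower at an unadjusted p under 0.05, which 16.8% of all genes had.

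Bmp3, an antagonist-like BMP that does not signal as the others do, moved the other way in mTECs without being called. It was at 7.46, 8.32 and 5.78 FPKM in NPC and at 4.11, 3.08 and 1.67 at D-2. The groups did not overlap, and the log2 fold change of -1.71 (SE 0.42) had an adjusted p of 0.0361. The share of all genes without overlap was not counted, here or in the later comparisons.

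In cTECs no member of 39 was called between D-2 and NPC by limma, edgeR or DESeq2 (0, 0 and 0 calls), and 0.0947% of all genes were called. At an unadjusted p under 0.05 in limma, which 8.36% of all genes had, 1 member was higher and 1 lower. Fst was at 25.9, 19.9 and 24.7 FPKM in NPC and at 33.2, 42.6 and 42.1 FPKM at D-2. These groups did not overlap either, but the difference lay under 2-fold and had an adjusted p of 0.131. Whether the difference between D-2 and NPC was itself unlike in cTECs and mTECs was not tested. Acvr2b, a type II activin receptor, was at 0.53, 0 and 0.87 FPKM in NPC and 4.19, 3.99 and 2.45 at D-2 (3.38, SE 1.72, adjusted p = 0.632).

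The day of birth itself brought no call. At D0 against D-2, limma, edgeR and DESeq2 called 0 of 39 members in cTECs and 0 of 39 in mTECs, against 0% of all genes in each. In each cell type 1 member was higher and 3 lower at an unadjusted p under 0.05. Of all genes, 3.93% in cTECs and 6.4% in mTECs had such a p. Fst was at 30.2, 30.6 and 27.8 FPKM in the cTECs of D0, and at 44.8, 60.8 and 53.1 FPKM in the mTECs. In mTECs all 3 values lay below the 3 of D-2 (log2 fold change -1.03, SE 0.23, adjusted p = 0.262), a call only where samples were weighted by quality (adjusted p = 0.00145). In cTECs, Inhba, the activin subunit whose protein follistatin captures, was at 4.89, 2.02 and 3.92 FPKM at D-2 and 0, 0.84 and 1.3 at D0, and Chrd, the gene of chordin, at 0, 0.47 and 0.43 and then 1.6, 2.16 and 1.35 FPKM. Neither Inhba (-3.29, SE 1.30) nor Chrd (3.39, SE 1.42) was called, with an adjusted p of 0.999 each. Gdf15, a stress-induced ligand, was the other member at least 2-fold apart with no overlap, lower at D0 in mTECs (-1.16, SE 1.34, adjusted p = 0.949).

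**Figure D3:**
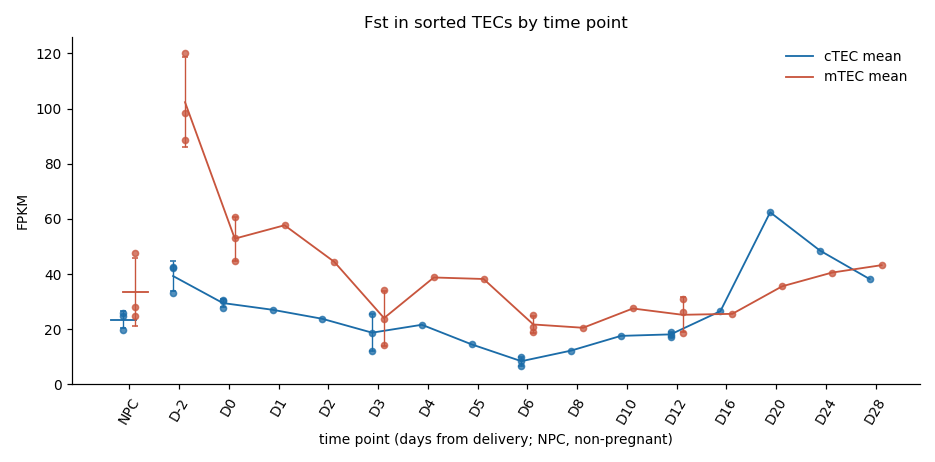
Fst levels in FPKM by time point, with 1 point per sample, lines through the means of each cell type and bars of 1 SD where a time point has 3 samples; NPC stand apart at the left. The D-2 mTEC samples (88.5 to 120.2 FPKM) lie above all other samples, and the D6 cTEC samples (6.65 to 9.97 FPKM) are the lowest.

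Day 6 falls in the phase in which the thymus regrows, and its comparison with D-2 asks which members differ between the involuted and the regrowing organ. In cTECs Fst fell, 1 member of 39, against 1.58% of all genes tested. Its 3 samples of D6 held 8.69, 6.65 and 9.97 FPKM (8.44 ± 1.67, SD, n = 3) and those of D-2 33.2, 42.6 and 42.1 FPKM (39.3 ± 5.27, n = 3). No D6 value came near the lowest D-2 value, with a log2 fold change of -2.37 (SE 0.23, adjusted p = 7.67e-06). In mTECs Fst fell as well, the 1 member of 39 called against 0.0113% of all genes, to 25.3, 20.8 and 19.2 FPKM (21.8 ± 3.15, n = 3), a log2 fold change of -2.24 (SE 0.31, adjusted p = 0.00563). The D6 samples were all far below the D-2 samples there too, but leaving out any 1 of the 6 mTEC samples of these time points (NPC and the other days kept) moved the adjusted p to between 0.0164 and 0.0846. The test of the difference between the cell types gave 0 of 39 members called by limma, edgeR and DESeq2, and 0.00544% of all genes were called. An unadjusted p under 0.05 was found for 1 member on each side and for 4.91% of all genes. For Fst that difference was -0.15 (SE 0.44, adjusted p = 1.0), an error too wide to show that the falls were alike in size.

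The fall of Fst in cTECs came with other marked shifts. Between D-2 and D6 the summed cTEC markers went from 1524 to 2609 FPKM to 10960 to 12050 FPKM, and the 8 fibroblast markers, none of them at 0 in all 3 samples of a group, from 282.8 to 372.1 FPKM to 109.2 to 159.6 FPKM. Most of the latter was Dcn, while Pdgfra, which defines fibroblasts, reached 0.37 FPKM at the most in these samples. The 12 thymocyte markers summed to 22.4 to 25.3 FPKM at D-2 and 67.5 to 91.8 at D6. The part of these shifts in the fall was not tested. In mTECs the fibroblast sums of D-2 and D6 overlapped (128.4 to 177.5 and 110.2 to 161.3 FPKM), while the mural sums did not, at 185.0 to 245.4 FPKM at D-2 and 406.3 to 582.8 FPKM at D6, and the part of these was not tested either.

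The 13 tested ligands lay mostly lower at D6 in cTECs, 11 of 13 with a median log2 fold change of -1.37, and 4 of them at an unadjusted p under 0.05, but none was called. Over all 39 members 25 were lower (22 to 27 under the alternatives), with a median of -0.20 beside -0.02 over all genes, and 2 were higher and 11 lower at an unadjusted p under 0.05, where 19% of all genes had such a p. Inhba was at 0.43, 0.56 and 0.36 FPKM at D6, below all 3 samples of D-2 (-2.86, SE 1.28, adjusted p = 0.229). Bmp2 was at 1.83, 3.19 and 1.24 FPKM at D-2 and 0.97, 0.19 and 0.63 at D6 (-2.12, SE 1.16, adjusted p = 0.342). Bmp3 and Gdf11 were near the limit of detection, with 0, 0 and 0.31 FPKM and 0, 0.24 and 0.58 FPKM at D6, so that their fitted values of -6.07 (SE 1.87, adjusted p = 0.0679) and -3.63 (SE 1.41, adjusted p = 0.157) depend on the small count added to zeros. Bmp4 was at 2.49, 8.42 and 14.2 FPKM at D-2 and at 2.04, 2.51 and 1.79 at D6, and these groups overlapped by 1 sample. In mTECs 10 of the 13 ligands and 27 of the 39 members (25 to 29 under the alternatives) were lower at D6, with a median of -0.23 over the members beside -0.03 over all genes.

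The receptors showed no common direction in cTECs, 6 higher and 4 lower at D6. Acvr2b was at 1.43, 0 and 0.96 FPKM at D6, below its D-2 samples (-3.78, SE 1.70, adjusted p = 0.230), and in mTECs it went from 10.7, 3.09 and 4.29 FPKM to 0.47, 1.86 and 1.18 (-2.39, SE 1.25, adjusted p = 0.743). Tgfbr1, the type I TGF-beta receptor, was the member with the positive difference between cell types at an unadjusted p under 0.05, and Bmp3 the one with the negative. In mTECs Inhba (4.22, 4.12 and 1.95 FPKM, then 1.21, 0.57 and 0.76) and Grem1, the gene of gremlin (5.0, 6.27 and 3.1 FPKM, then 1.0, 1.79 and 1.35), also separated without overlap, at adjusted p of 0.983 and 0.978 and log2 fold changes of -1.59 (SE 1.58) and -1.41 (SE 1.37). How many of all genes separated in this way was not counted.

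Among the readouts in cTECs, 8 of 10 were lower at D6 and 4 of these had an unadjusted p under 0.05. The 9 immediate-early genes, which respond to handling and digestion of tissue, were all lower too, with a median of -0.73, 4 of them at an unadjusted p under 0.05 and Dusp1 called (-1.88), and 9 of 9 were lower in mTECs. Their part in the values of the readouts was not tested. Id1 was at 48.7, 58.9 and 34.8 FPKM at D-2 (47.5 ± 12.1, n = 3) and at 4.39, 20.95 and 31.7 FPKM at D6 (19.0 ± 13.8, n = 3). Every D6 sample lay below every D-2 sample, but the D6 samples were far apart among themselves, and the log2 fold change of -2.03 (SE 0.67) had an adjusted p of 0.0881. Without the cTEC libraries with the fewest genes (D3 replicate 2 and D20), which are not among these 6 samples, it was -2.001 with an adjusted p of 0.00975. Atoh8 was at 6.95, 12.02 and 9.24 FPKM at D-2 and 3.84, 5.46 and 4.23 at D6 (-1.42, SE 0.47, adjusted p = 0.095), and DESeq2 called it with an adjusted p of 0.00642. Smad9, an effector gene that BMPs also induce, was higher at 3.34, 3.67 and 3.24 against 0.91, 1.45 and 1.67 FPKM (1.38, SE 0.83, adjusted p = 0.4005), and so was Chrd at 0.66, 0.83 and 3.97 FPKM (2.73, SE 1.48, adjusted p = 0.335).

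In mTECs Id1 stood at 75.1, 73.2 and 84.6 FPKM at D-2 (77.6 ± 6.07, n = 3) and at 62.5, 61.4 and 81.3 FPKM at D6 (68.4 ± 11.2, n = 3). The groups overlapped here, and the difference between the cell types in the change of Id1 was -1.66 on the log2 scale (SE 0.87, unadjusted p = 0.0648, adjusted p = 1.0). The highest mean level of Id1 was that of the D3 mTECs, with 186.8, 139.0 and 133.1 FPKM, and 1 NPC mTEC sample, at 136.3 FPKM, lay within that range. In the cTECs of D3, Id1 was at 47.3, 0 and 34.2 FPKM, the 0 being the library with 10481 genes.

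**Figure D4:**
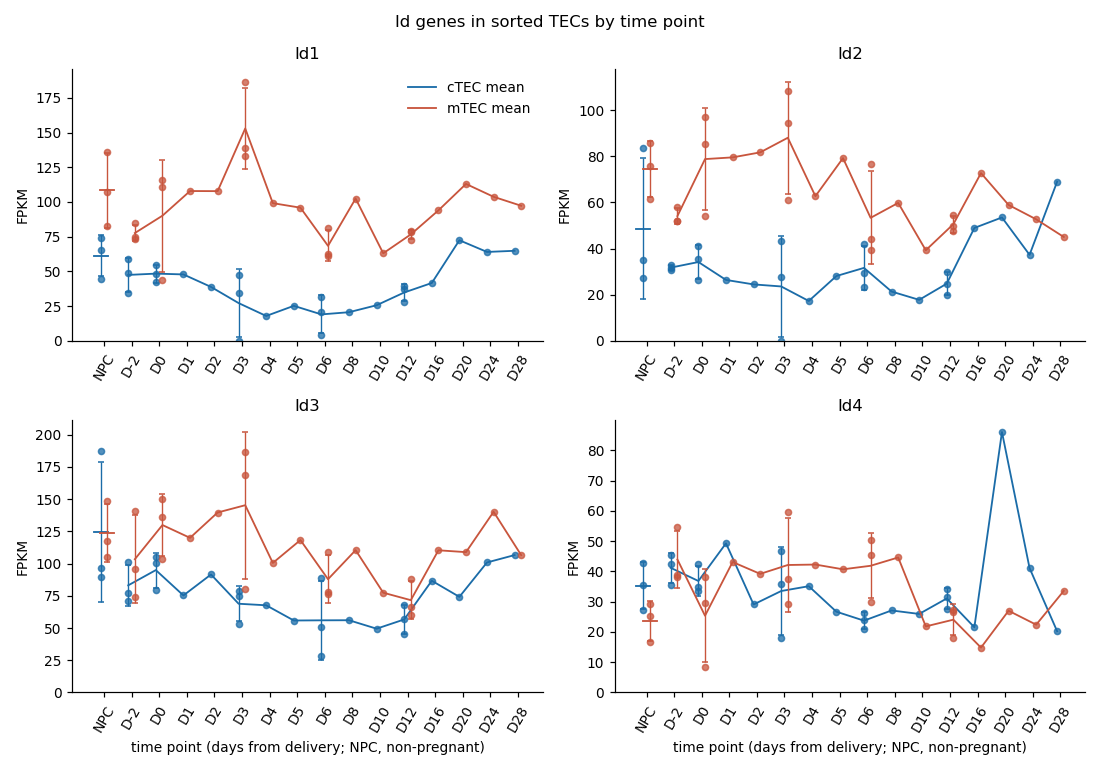
Levels of Id1, Id2, Id3 and Id4 in FPKM by time point, drawn as for Fst, with points for samples, lines through means and bars of 1 SD where a time point has 3 samples. Id1 in mTECs is above Id1 in cTECs at each time point by its mean, with the highest mean at D3 (133.1 to 186.8 FPKM), and 1 cTEC sample of D3 is at 0 for Id1 and Id2.

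**Figure D5:**
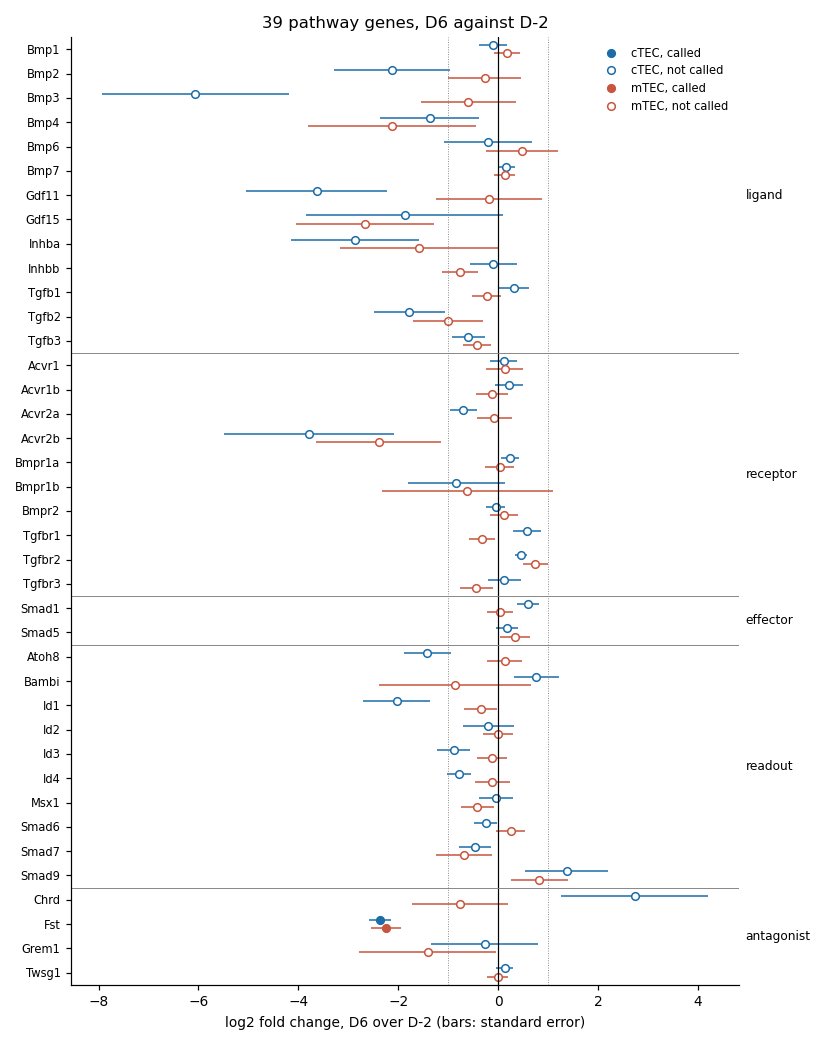
Log2 fold changes of the 39 members at D6 over D-2 (horizontal axis) in cTECs and mTECs, by gene and role (vertical axis), with bars for the standard error and dotted lines at a fold change of 2. The filled points are Fst, called in cTECs (-2.37) and mTECs (-2.24), and the ligands Bmp3, Gdf11 and Inhba in cTECs have wide errors.

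Late regeneration (D16 to D28, n = 4) was compared with early regeneration (D0 to D12, n = 18), to ask what sets apart the phase after the thymus has regrown. In cTECs 2 of the 39 members were called, Fst higher and Msx1 lower, against 1.41% of all genes. Late Fst levels were 26.6, 62.4, 48.5 and 38.2 FPKM (43.9 ± 15.2, n = 4), and the early ones ran from 6.65 through a median of 18.4 to 30.6 FPKM. All but the sample of D16 were above the whole early range, and the log2 fold change was 1.26 (SE 0.27, adjusted p = 0.00585). Msx1, a homeobox gene induced by BMPs, was at 6.34, 3.35, 13.4 and 6.22 FPKM in the late samples and ran from 6.08 through 13.6 to 16.5 FPKM in the early ones, with overlapping groups (-1.24, SE 0.28, adjusted p = 0.0064). Neither call was stable. Without the D20 library, 1 of those with the fewest genes, no member was called, and edgeR called 0, DESeq2 only Fst, and counting D12 as late gave 0. Without the 11 cTEC samples with more mTEC marker RNA, which leaves D16 alone as late, 0 members were called. With samples weighted by quality Bmp3, Chrd and Msx1 were called, and Fst was not. Without D16 only Fst was called, without D24 only Msx1, and without D28 only Atoh8.

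At an unadjusted p under 0.05, 14 members were higher and 2 lower in the late cTECs, among them the readouts Atoh8, Id1, Id2 and Id3 on the higher side, and 27.2% of all genes had such a p. Id1 was at 41.6, 72.4, 64.0 and 64.8 FPKM in the late samples and ran from 0 through 33.0 to 54.9 in the early ones, and the groups overlapped (adjusted p = 0.0572). The summed fibroblast markers were 294.7 to 680.5 FPKM in the late and 79.5 to 360.0 FPKM in the early cTECs. Most of this was Dcn, at means of 462.4 and 185.8 FPKM, while Pdgfra reached 1.06 and 0.61 FPKM at the most. The part of these markers in the values of the members was not tested. In mTECs limma, edgeR and DESeq2 called 0 of 39 members between the phases, against 0.062% of all genes. At an unadjusted p under 0.05, which 20% of all genes had, 4 members were higher and 3 lower. Fst was at 25.6, 35.6, 40.5 and 43.2 FPKM in the late mTECs, inside the early range of 14.3 to 60.8 FPKM (adjusted p = 0.917).

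How the readouts varied with each other was measured over the 28 samples of a cell type, as correlations of Id1 with 5 genes in each, 10 in all, of log2(FPKM + 0.5), with two-sided permutation p adjusted over the 10. In cTECs Id1 went with Id3 at r = 0.5998 (adjusted p = 0.007) and Spearman's rho = 0.778 (adjusted p = 0.0003), and r was 0.515 without the 2 samples farthest from the median of Id3. With Id2, r was 0.886 (adjusted p = 0.0001, from an unadjusted p of 1e-05, the smallest that 100000 permutations can give) and rho 0.669 (adjusted p = 0.0005), but r was 0.537 without the 2 farthest samples, since Id1 and Id2 are both at 0 in D3 replicate 2. In mTECs the r of Id1 was 0.633 with Id2 (adjusted p = 0.00145) and 0.462 with Id3 (adjusted p = 0.0316).

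Foxn1, the master transcription factor of TECs, had an r of -0.378 (adjusted p = 0.0835) and a rho of -0.506 (adjusted p = 0.0125) with Id1 in cTECs. Fos, an immediate-early gene induced by handling and digestion of tissue, had an r of 0.249 (adjusted p = 0.258) and a rho of 0.454 (adjusted p = 0.0257). Without the 2 cTEC libraries with the fewest genes, r became -0.553 for Foxn1 (adjusted p = 0.00838) and 0.546 for Fos (adjusted p = 0.00725). Smad6, an inhibitory SMAD gene and another BMP target, had an r of 0.102 with Id1 in cTECs (adjusted p = 0.61) and of -0.428 in mTECs (adjusted p = 0.0518), the latter -0.100 without the 2 farthest samples. In mTECs Foxn1 (r = -0.101, adjusted p = 0.61) and Fos (r = 0.306, adjusted p = 0.161) did not pass the test. Leaving out D-2 changed no side of the threshold among the 10 relations, and over the 17 cTEC samples with more cTEC than mTEC marker RNA, r with Id3 was 0.532 (adjusted p = 0.0774).

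The other genes of the pathway were read from a list of 59, of which 36 passed the filter in cTECs, 44 in mTECs and 46 in either. None was called by limma between time points in either cell type, and of all genes 0% to 1.58% were. At an unadjusted p under 0.05, 2 of 36 were higher and 5 lower at D6 against D-2 in cTECs, where 19% of all genes had such a p. In mTECs 1 of 44 was higher and 5 lower, where 7.55% of all genes had such a p. At D-2 against NPC in mTECs 10 of 44 were higher and 0 lower. There 16.8% of all genes had such a p and 92 of the 101 called were higher. Between the cell types 19 of 46 were called, against 23.3% of all genes, of which 3433 of 4293 calls were lower in cTECs too. Gdf7, a ligand gene (log2 fold change 5.21), and Nbl1, a BMP antagonist gene (1.28), were higher in cTECs and 17 were lower. Among these were Pmepa1 (-1.74) and Skil (-1.23), which are known targets of TGF-beta, and the integrin subunit genes Itgb6 (-2.84) and Itgb8 (-3.05), whose proteins release TGF-beta from its latent form.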

How the data were processed

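RNA-seq of 56 sorted TEC samples was used, grouped by the labels. Per the submitters' processing notes, Trimmomatic 0.35, STAR 2.5.1b, RSEM 1.2.28 and bcl2fastq 2.20 were used with GRCm38. The authors deposited for each sample RSEM's expected counts, which are not normalized and of which 91.4% to 98.0% were whole numbers, FPKM values scaled by gene length and depth, and TPM values. The TPM values were used only for an alternative run of the correlations. GENCODE M21 matched 50376 of the 50600 identifiers.

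Expected counts were rounded and fitted with limma 3.58.1 (voom, with the TMM scaling of edgeR 4.0.16) in R 4.3.3. The contrasts D-2 against NPC, D0 against D-2 and D6 against D-2 came from a fit of the 28 samples of a cell type with 1 mean per time point (D1, D2 and the other 8 time points with 1 sample add no spread). Late was compared with early samples directly, and the cell types in a fit of 56 samples. Genes passed the filter at 0.5 FPKM or more on average, and a call needed a 2-fold difference and an adjusted p (Benjamini-Hochberg, over all genes tested) no higher than 0.01. Correlations used Python 3.11.15 and SciPy 1.17.1. The p-values of contrasts between time points rest on the spread between mice within the groups that have replicates. For late against early samples, differences between time points count as spread too. The permutation p of the correlations treats samples as exchangeable across time points, so that differences between time points enter it. The fit of 56 samples treats all samples as independent, and the labels do not say whether any share a mouse.

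Members and lists were chosen with earlier results of these data known. Log2 fold changes are given for members called, and for those with a log2 value of at least 1 either way and no overlap of groups. Overlap was not read for all genes, so a lack of overlap alone does not set a member apart from the other genes. No 2 samples of a cell type agreed within sampling noise. On simulated counts with 200 genes changed 4-fold, 35% were recovered for D6 against D-2 in cTECs, 25% in mTECs, 46% for late against early cTECs, 62.5% between cell types and 12.5% for the cell type difference in D6 against D-2. Of the genes called for late against early cTECs there, 14% were false. Alternatives were edgeR, DESeq2 1.42.0, other scaling, filters, thresholds, weights and samples, a replicate block, and each sample left out.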

Additional observations from a re-analysis of the deposited data

Results flagged for a closer look

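Of 78 values, the level of each of the 39 members in the 4 late samples (D16, D20, D24 and D28) of each cell type, 8 had 1 sample far from the others, by a gap to its nearest neighbour, as a share of the whole range, above the critical value of Dixon's test. Chance flags about 1 in 20 such groups. Of these 8, 5 were in the D20 cTEC library, which held 13483 genes: Inhba (gap 0.926, 7.62 FPKM against 1.95 to 2.37), whose activin subunit follistatin binds, Bmp3 (0.917, 4.99 against 1.0 to 1.33 FPKM), Bmpr1b (0.911, 3.94 against 0.91 to 1.18 FPKM), Inhbb (0.8997, 14.6 against 4.47 to 5.49 FPKM) and Gdf11 (0.939, 0 against 0.62 to 0.66 FPKM). The same library held the highest late level of Fst, 62.4 FPKM. In mTECs, D20 was the low sample for Bmpr2 (0.844, 6.82 against 8.01 to 8.23 FPKM) and Inhbb (0.8294, 6.08 against 7.83 to 8.19 FPKM), and D24 the high sample for Id3 (0.888, 140.2 against 106.55 to 110.33 FPKM).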

How the results depend on the processing

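The fall of Fst in cTECs between D-2 and D6 was called under every alternative run, with log2 fold changes from -2.50 to -2.17 when each sample was left out and -2.41 to -2.26 otherwise. DESeq2 called 2 members there (with Atoh8), and leaving out the libraries with the fewest genes 2 (with Id1). In mTECs the call of Fst at D6 held under the other 9 alternatives and was lost in each of the 6 fits without 1 sample (0 to 0 calls). At D-2 against NPC in mTECs, edgeR called 0, the compared time points alone 0, and an adjusted p of 0.05 gave 2 (with Bmp3), and sample quality weights gave 1 call at D0 against D-2 in mTECs. Late against early cTECs gave 0 calls with edgeR, 1 with DESeq2, 1 without a filter, 5 at an adjusted p of 0.05, 0 without the libraries with the fewest genes, 0 with D12 counted as late, 0 without the 11 cTEC samples with more mTEC marker RNA, and 0 to 1 when each late sample was left out. Between cell types, NPC samples alone gave 1 call. The fitted value of Bmpr1b turned to 2.07 there, while its mean level stayed lower in cTECs. Without the libraries with the fewest genes, an alternative chosen after seeing the data, the r of Id1 with Smad6 in cTECs turned to -0.0168, and those with Foxn1 (-0.553) and Fos (0.546) passed the threshold. Without the 11 cTEC samples, chosen in the same way, the r of Id1 with Id3 (0.532) no longer passed it. For the causes of these changes, fewer samples are part of the alternative where samples were left out, and the others were not tested. Among single genes, 457 values kept their side of the threshold, 44 lost it, 4 gained it and 1 turned.

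A replicate block changed no count of calls. Within a cell type the block was the running number of the replicates in a group, and between cell types the time point with the title number. With it, Fst was at -2.34 in cTECs and -2.19 in mTECs for D6 against D-2, and at 1.61 in mTECs for D-2 against NPC. Samples of different time points with the same running number, which is often not the number in the title, had correlations of deviations from -0.134 to 0.0529. Samples of different cell types at 1 time point had -0.164 to 0.0988 where title numbers were equal and -0.162 to 0.284 where they differed. Such weak correlations cannot show whether equal title numbers mark 1 mouse. The labels do not state it, and the main fit had no mouse block. No paired analysis was possible for late against early samples because each late time point has 1 sample. Low members were at 0 in deep libraries too, such as Gdf11 in cTEC D20, of 38236130 counts. That library was, however, among those with the fewest detected genes (13483).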
